A study of Mus musculus with 12 samples.

Results

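Trp53 and its direct regulators Mdm2, Mdm4, Ppm1d and Usp7 were followed through all 12 libraries of an RNA sequencing experiment in mouse embryonic stem cells (ESCs). These 5 genes, out of 25759 listed in each expression table, were selected on measured values, with the level of Trp53 in the Cdk8 mutant clones already known; the 4 others encode proteins that control p53 directly. The genotype and clone values of the 5 genes are therefore given as a description without a test. The experiment asked how the loss of Cdk8, a kinase of the Mediator complex, affects gene expression when Xist is switched on. Xist is the noncoding RNA that silences an X chromosome, and here it was transcribed from a doxycycline-inducible allele. The 4 groups of 3 libraries were wild-type HATX3 ESCs without induction, these wild-type cells with Xist switched on for 48 h, and Cdk8-/- (ΔCdk8) cells in both states. All 12 libraries carried the inducible Xist allele. The HATX3 line is a diploidised ESC line of haploid embryo origin. The 3 ΔCdk8 libraries of each state came from clones 8, 11 and 15, each a single clone with a small CRISPR deletion around the start codon, so that a difference between clones cannot be told apart from a difference that Cdk8 loss makes in some clones. In bulk RNA, fewer cells of a type and less RNA per cell cannot be told apart.

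Trp53 encodes p53, a transcription factor that answers DNA damage and other stress by switching on genes for cell cycle arrest, repair and cell death. Mdm2 is the ubiquitin ligase that marks p53 for degradation, and it is itself a p53 target, which closes a negative feedback loop. Its relative Mdm4 binds the p53 activation domain, the phosphatase Ppm1d (Wip1) removes damage-induced phosphates from p53 and its kinases, and the deubiquitinase Usp7 removes ubiquitin from both Mdm2 and p53. In mouse ESCs p53 is abundant and much of it is held in the cytoplasm.

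All 5 genes lie on autosomes of the GRCm38 build. Trp53 (ENSMUSG00000059552) is on the plus strand at chr11:69580359-69591873 with 1868 exonic bases in the tables, and Ppm1d (ENSMUSG00000020525) is on the same strand of the same chromosome at chr11:85311244-85347066. The other genes are on minus strands, Mdm2 (ENSMUSG00000020184) at chr10:117688875-117710758, Mdm4 (ENSMUSG00000054387) at chr1:132959484-133030561 and Usp7 (ENSMUSG00000022710) at chr16:8689595-8792308. No other gene in the tables overlaps any of them, and at least 99.8% of their exon reads were placed uniquely in every library.

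The start of Trp53 faces that of Wrap53, a gene on the opposite strand, across 103 bases with a GC content of 56.3%. This stretch is shown because Trp53 and Wrap53, whose starts it separates, differed in their ratio to the wild-type mean in clones 8 and 15 (0.067 and 0.0663 for Trp53, 0.91 and 0.753 for Wrap53) and less so in clone 11 (1.18 and 0.996). Promoter windows of RefSeq (GRCm38.p6), from 250 bases before to 50 bases after each start, were searched for the p53 decamer, the 10-letter unit of the p53 response element, which reads the same on both strands. All 5 genes had a window, 6 in all, and the windows of Trp53, Mdm2 and Ppm1d held 1 decamer each, against 8.36% of the 32851 windows of all genes. The windows of Mdm4 and Usp7 held none, and the Usp7 window starts at a transcript inside the gene. Of Cdkn1a, the classical p53 target, the upstream window held 2. A pair of decamers at most 1 base apart, without any deviation, was in 0.00913% of all windows and in none of these. In the stretches below, written 5′ to 3′ on the strand of the gene, the capitals mark the decamers. They are shown to set the upstream sequence of the 3 members beside that of Cdkn1a, and a match describes letters only.
Trp53, chr11:69580256-69580358: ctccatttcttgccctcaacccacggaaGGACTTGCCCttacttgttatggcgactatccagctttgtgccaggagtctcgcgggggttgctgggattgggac
Mdm2, chr10:117710895-117710984: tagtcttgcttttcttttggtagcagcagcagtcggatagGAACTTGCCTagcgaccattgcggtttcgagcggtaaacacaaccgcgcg
Ppm1d, chr11:85311082-85311171: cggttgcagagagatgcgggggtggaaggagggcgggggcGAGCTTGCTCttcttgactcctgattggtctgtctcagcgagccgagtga
Cdkn1a, chr17:29090866-29090977: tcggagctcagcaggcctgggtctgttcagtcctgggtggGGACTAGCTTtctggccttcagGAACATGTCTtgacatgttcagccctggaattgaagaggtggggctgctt
The decamers begin 75 bases before the start in Trp53, 186 in Mdm2, 132 in Ppm1d, and 73 and 51 in Cdkn1a. The p53-responsive promoter of Mdm2 lies in its first intron, outside the window searched.

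The libraries held 22170087 to 60798578 reads assigned to genes, of which 4.77 to 7.59% were in introns. All 8 ESC markers were above 1 TPM (transcripts per 1000000) in every library, with a summed level of 3970 to 7540 TPM. Marker sums of other cell types, with 6 markers each, ran from 5.43 to 11.1 TPM for endoderm and from 11.9 to 42.5 TPM for neural cells and mesoderm. Fibroblast markers summed to 5.81 to 17.7 TPM in wild-type and 20.2 to 32.8 TPM in ΔCdk8 libraries, with 1 of the 6 above 1 TPM in every library, and trophoblast markers to 25.5 to 222 TPM in wild-type and 85 to 575 TPM in ΔCdk8 libraries, where 4 of 6 uninduced and 5 of 6 induced were above 1 TPM throughout. The part of these cells in the results was not tested. The level of Cdk8 itself did not separate the genotypes: uninduced Cdk8 was 64.2, 69.4 and 74.2 TPM in wild-type replicates 1, 2 and 3 and 34.4, 56.8 and 85.3 TPM in clones 8, 11 and 15. The knockout labels could therefore not be checked on the level of this transcript.

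Trp53 varied most of the 5 genes, and its level separated the clones rather than the genotypes. In uninduced wild-type ESCs it stood at 381, 486 and 478 TPM in replicates 1, 2 and 3 (448 ± 58.4, SD, n = 3). The uninduced ΔCdk8 libraries held 30.1 TPM in clone 8, 527 TPM in clone 11 and 29.7 TPM in clone 15. Clone 11 was above all wild-type replicates, and clones 8 and 15 were 14.9-fold and 15.1-fold below the wild-type mean. The ΔCdk8 mean of 196 TPM, with an SD of 287 (n = 3), described none of the clones.

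After induction Trp53 was 27.2 TPM in clone 8, 511 TPM in clone 11 and 19.9 TPM in clone 15, against 515, 643 and 675 TPM in the wild-type. Clones 8 and 15 were again far below the other libraries, and clone 11, which was above all wild-type libraries before induction, was below all of them after it. Among the 7661 genes with a mean of at least 10 TPM in uninduced wild-type cells, Trp53 had the 14th lowest ratio to the wild-type mean in uninduced clone 8 and the 5th lowest in clone 15, and was 6273rd in clone 11. A ratio below 0.1 was shared by 22 genes in clone 8, 10 in clone 11 and 15 in clone 15. The ratio of the ΔCdk8 to the wild-type mean was -1.20 on the log2 scale with all clones and -3.91 without clone 11.

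**Figure D1:**
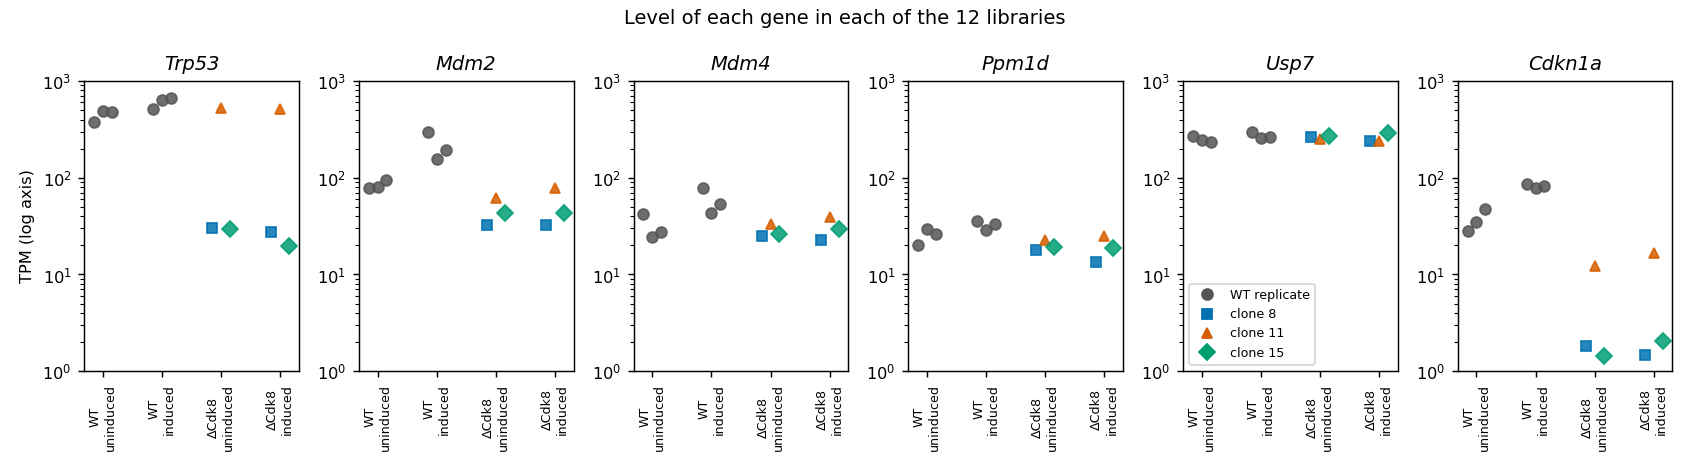
TPM on a log axis of the 5 genes and of Cdkn1a in each of the 12 libraries, with grey circles for wild-type replicates and a symbol for each ΔCdk8 clone. Trp53 was near 30 TPM in uninduced clones 8 and 15 and at 527 TPM in clone 11, while Usp7 had a highest library only 1.28 times its lowest.

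The kinds of reads that made up the Trp53 level differed between these libraries. Reads across exon-exon junctions, which come from spliced RNA, were 172, 216 and 208 RPM (reads per 1000000 gene reads) in uninduced wild-type replicates 1, 2 and 3 and 15.7, 243 and 16.2 in clones 8, 11 and 15. Intron reads, which come mostly from unspliced RNA, were 12.2, 18.3 and 19.9 RPM in the wild-type and 7.93, 21.1 and 7.97 in clones 8, 11 and 15. Relative to the wild-type mean the spliced signal was thus 0.0788 in clone 8 and 0.0816 in clone 15, and the intron signal 0.471 and 0.473.

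Introns accordingly took a larger share of the Trp53 reads in clones 8 and 15. The share was 4.17 to 5.39% in uninduced wild-type libraries and 5.11% in clone 11 (95% Wilson interval 4.81 to 5.43). It was 27.1% in clone 8 (470 of 1733 reads, 25.1 to 29.3) and 27.9% in clone 15 (346 of 1241 reads, 25.5 to 30.4). These intervals cover counting error only, and those of clones 8 and 15 overlap each other but no other uninduced library. After induction the share was 26.0% in clone 8, 5.71% in clone 11 and 40.1% in clone 15 (36.4 to 43.9), against 5.02 to 8.02% in the wild-type.

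Library-wide intron shares moved far less, at 6.87% in clone 8 and 5.73% in clone 15 before induction and 7.59% and 7.25% after it. In induced wild-type libraries they were 5.42 to 6.59%. Of the exon reads of Trp53, 59.1 to 62.0% crossed a junction in the wild-type and in clone 11, whereas 73.6% and 78.8% did in uninduced clones 8 and 15 and 72.8% and 86.6% after induction. The exon reads that remained in these clones were therefore more often split over junctions. How these reads are spread along the gene was not analysed here.

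**Figure D2:**
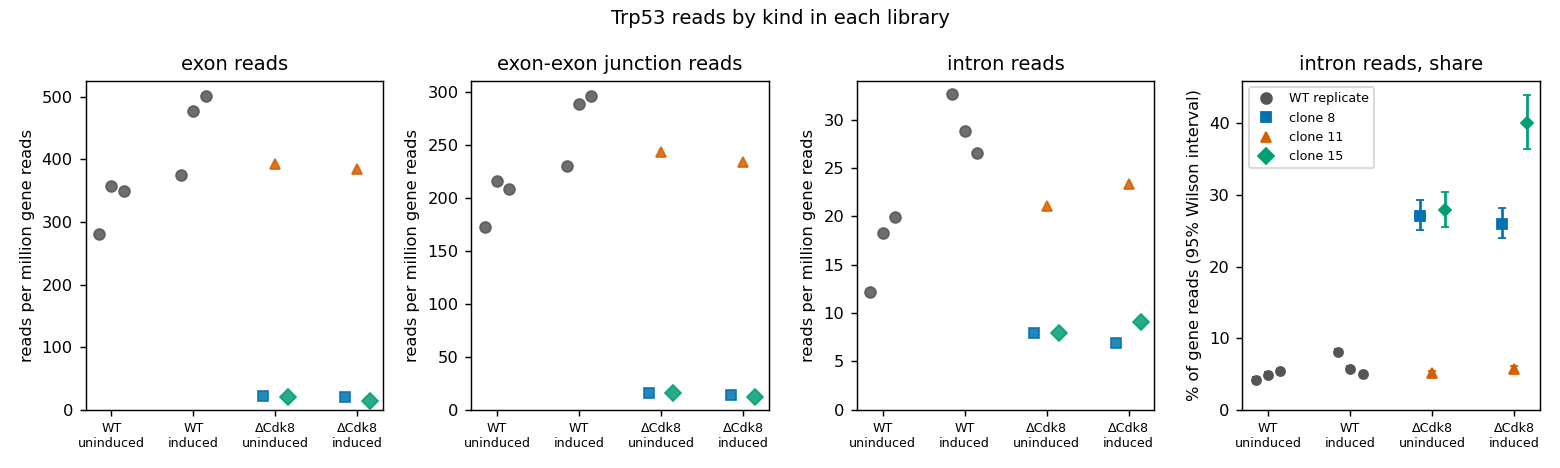
Trp53 exon, exon-exon junction and intron reads in RPM, and intron reads as a percentage of gene reads with 95% Wilson intervals, in each library. Exon and junction reads of clones 8 and 15 sit near the axis while their intron reads keep 0.41 to 0.542 of the uninduced wild-type mean, so that their intron share is 26.0% or more.

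Genes around Trp53 lay on both sides of their wild-type level in the clones, and those named here were chosen after their values were seen. Of 15 other genes in the tables within 100 kb, a window chosen after the values were seen, 13 had at least 1 TPM in uninduced wild-type cells. The median of their ratios to wild-type was 1.15, 1.23 and 1.29 in clones 8, 11 and 15. The highest ratios were 3.73 in clone 8 (Sox15), 4.05 in clone 11 (Cd68) and 3.06 in clone 15 (Sat2). Wrap53, whose start is 104 bases from that of Trp53 and whose protein is part of telomerase, was 26.7, 41.7 and 43.6 TPM in wild-type replicates and 34.0, 37.2 and 28.1 TPM in clones 8, 11 and 15. All 3 clones lay within the wild-type range of Wrap53. Atp1b2, a sodium pump subunit gene 7863 bases beyond the end of Trp53, had the lowest ratios, at 0.199 in clone 8, 0.645 in clone 11 and 0.152 in clone 15. Mpdu1, a gene of glycosylation 64824 bases away, was 173 to 190 TPM in the wild-type and 122, 203 and 118 TPM in clones 8, 11 and 15, so that clones 8 and 15 were below and clone 11 was above all wild-type libraries, at ratios of 0.682, 1.14 and 0.66. Cd68 and Sox15 were higher than the wild-type mean in each clone, at 1.71, 4.05 and 1.88 for Cd68 and 3.73, 2.51 and 1.95 for Sox15. Along the whole of chromosome 11 the median log2 ratio of 993 genes was 0.13, -0.02 and 0.15 in uninduced clones 8, 11 and 15, and 0.302, 0.101 and 0.302% of these genes were below -2.

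**Figure D3:**
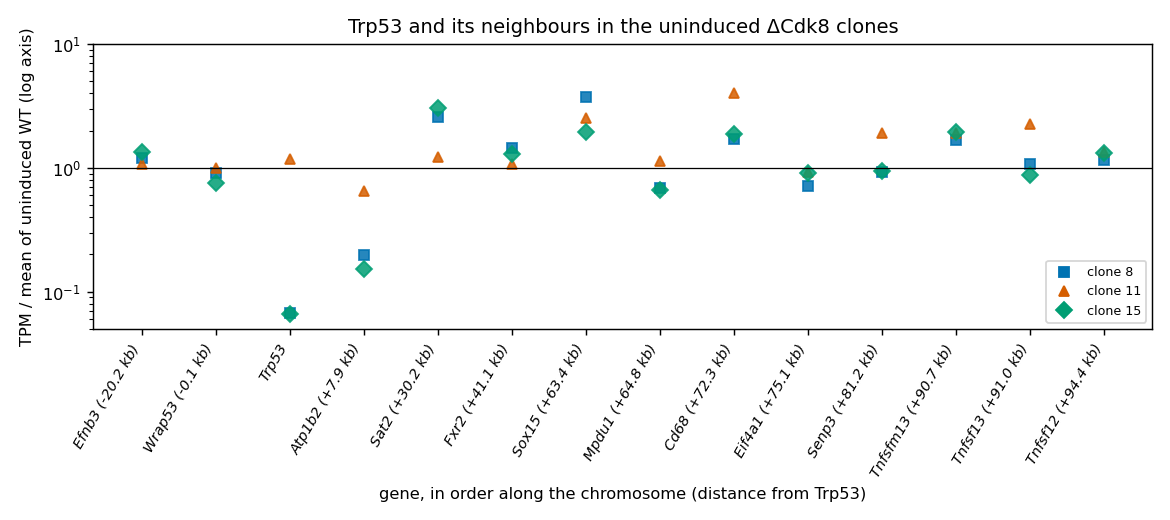
Ratio of the TPM in each uninduced ΔCdk8 clone to the uninduced wild-type mean, on a log axis, for Trp53 and the 13 neighbouring genes with at least 1 TPM, in chromosome order with their distance from Trp53. Trp53 in clones 8 and 15 lies at 0.067 and 0.0663, Atp1b2 at 0.199 and 0.152, and Wrap53 at 0.91 and 0.753.

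Mdm2, the p53 ubiquitin ligase, was 78.9, 80.3 and 95.3 TPM in uninduced wild-type replicates 1, 2 and 3 and 32.5, 61.1 and 43.1 TPM in clones 8, 11 and 15. Every clone was below every wild-type library, clone 11 the least. Its fitted log2 fold change between genotypes was -1.0 (SE 0.27). Mdm2 was the only one of the 5 genes whose uninduced groups did not overlap, where 6.79% of the 14646 genes tested had all 3 clones lower and 16.3% all 3 higher, and nothing is read from this count because the genes were chosen with this contrast known.

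The intron reads of Mdm2 gave a similar order, with 7.9, 10.5 and 12 RPM in the wild-type and 6.08, 8.01 and 5.23 in clones 8, 11 and 15. Clone 11 overlapped the wild-type here. The junction share of Mdm2 was 25.5 to 30.7% of exon reads over the 12 libraries. Its intron share was 7.47 to 9.55% of gene reads in uninduced wild-type libraries and 13.5, 9.47 and 9.42% in uninduced clones 8, 11 and 15, and after induction 9.55 to 12.3% in the wild-type and 16.8, 8.4 and 14.6% in the clones.

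Mdm4, which binds and inhibits p53, was 41.9, 24.2 and 27.5 TPM in uninduced wild-type replicates and 24.8, 32.9 and 25.9 TPM in clones 8, 11 and 15. The groups overlapped, and the fitted log2 fold change between genotypes was -0.28 (SE 0.26). Ppm1d, the phosphatase that turns off the p53 response, was 20, 29.7 and 25.9 TPM in the wild-type and 17.7, 22.7 and 19.3 TPM in the clones, with a log2 fold change of -0.44 (SE 0.21). Its groups overlapped through clone 11. The intron share of Ppm1d was 4.41 to 8.37% in the uninduced wild-type and 14.9, 5.26 and 8.77% in clones 8, 11 and 15, and 18.9, 5.22 and 10.4% in the induced clones. Usp7, the deubiquitinase of Mdm2 and p53, was 271, 248 and 234 TPM in the wild-type and 262, 254 and 272 TPM in the clones, a log2 fold change of -0.06 (SE 0.13).

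Usp7 was the steadiest of the 5 genes: its highest library was 1.28 times its lowest, against 2.65 for Ppm1d, 3.48 for Mdm4, 9.11 for Mdm2 and 33.9 for Trp53. Its intron reads were less steady, at 22.4, 16.4 and 17.6 RPM in uninduced wild-type replicates and 41.1, 25.0 and 29.9 in clones 8, 11 and 15. All 3 clones were above the wild-type in intron reads although TPM, which counts exon reads, did not separate them. After induction the Usp7 intron reads were 31.4, 24.3 and 25.0 RPM in the wild-type and 60.5, 25.5 and 49.5 in clones 8, 11 and 15. Library-wide intron shares were also higher in clones 8 and 15. They were 4.77 to 5.54% in uninduced wild-type libraries and 6.87, 5.39 and 5.73% in clones 8, 11 and 15. After induction they were 5.42 to 6.59% and 7.59, 5.38 and 7.25%. Intron values of Mdm2, Ppm1d and Usp7 are to be read beside these shares. The threshold used throughout was an adjusted p under 0.01 in edgeR's quasi-likelihood test together with more than a 2-fold change. No gene passed it between uninduced genotypes, 0% in either direction, while 2982 genes had an unadjusted p under 0.05 and DESeq2 placed 264 higher and 122 lower.

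On Xist induction in wild-type ESCs Mdm2 rose in the fit that pairs the libraries, and Trp53 and Mdm4 were higher in each pair without passing the threshold. Induced wild-type replicates 1, 2 and 3 had 296, 156 and 194 TPM of Mdm2 (215 ± 72.4, SD, n = 3), which is 3.75, 1.95 and 2.04 times the uninduced library of the same number. The groups did not overlap. Mdm2 had a log2 fold change of 1.40 (SE 0.22, edgeR adjusted p = 0.0213) without the replicate number as a block, which misses the threshold, and of 1.35 (SE 0.18, edgeR adjusted p = 0.00686) with it, which passes. Libraries of one number deviated together, so the blocked fit was possible.

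Mdm2 was the 1 member of 5 called in the blocked fit, in which 1.47% of 14006 genes were called higher and 2.48% lower; without the block 0 of the 5 were called, against 0.15% of genes higher and 1.01% lower. In the unblocked fit 2969 genes had an unadjusted p under 0.05, and DESeq2, which called Mdm2 too, placed 222 genes higher and 440 lower. The intron reads of Mdm2 moved with its exon reads, from 7.9, 10.5 and 12 to 50.8, 20.7 and 29.8 RPM, and a fit of intron reads alone gave a log2 fold change of 1.49 (SE 0.25, edgeR adjusted p = 0.012).

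Trp53 was 1.35, 1.32 and 1.41 times as high in induced as in uninduced wild-type replicates 1, 2 and 3. Its groups of 381 to 486 and 515 to 675 TPM did not overlap. The log2 fold change was 0.49 (SE 0.16, edgeR adjusted p = 0.14) unblocked and 0.49 (SE 0.065, edgeR adjusted p = 0.00648) blocked, below the fold minimum in both. Trp53 intron reads were 2.68, 1.57 and 1.33 times as high after induction.

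Mdm4 reached 79.1, 43.5 and 53.2 TPM in induced wild-type replicates 1, 2 and 3, which is 1.89, 1.80 and 1.93 times the uninduced level. The 3 ratios were close to each other. The lowest induced library was above the highest uninduced one. The log2 fold change was 0.98 (SE 0.28, edgeR adjusted p = 0.102) unblocked and 0.99 (SE 0.07, edgeR adjusted p = 0.00116) blocked, just under the fold minimum.

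Ppm1d ratios were 1.78, 0.971 and 1.29, and its groups overlapped (log2 fold change 0.41, SE 0.17, edgeR adjusted p = 0.221, and 0.0969 with the block). Usp7 ratios were 1.11, 1.03 and 1.13 (log2 fold change 0.16, SE 0.10, edgeR adjusted p = 0.418, and 0.139 with the block). Neither gene passed. In TPM the induced libraries lay above all uninduced ones for 3 of the 5 genes, which was true of 12.1% of the genes tested, and below them for 0, which was true of 14.2%. All-gene shares on induction include X-linked genes, which Xist can silence, whereas the 5 genes are autosomal.

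In ΔCdk8 cells none of the 5 genes passed the threshold on induction. Mdm2 was 32.6, 77.6 and 43.3 TPM in induced clones 8, 11 and 15, or 1.00, 1.27 and 1.01 times the uninduced level of the same clone. Trp53 ratios were 0.903, 0.97 and 0.67, those of Mdm4 0.915, 1.19 and 1.14, those of Ppm1d 0.761, 1.11 and 0.981 and those of Usp7 0.916, 0.941 and 1.06. Trp53 was the only one of the 5 with a ratio below 1 in each clone, and clone 15 had the lowest.

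With the clone as a block the log2 fold changes were -0.14 for Trp53 (edgeR adjusted p = 0.279), 0.18 for Mdm2 (0.159), 0.16 for Mdm4 (0.207), -0.04 for Ppm1d (0.848) and 0.01 for Usp7 (0.945). The blocked fit called 0.135% of 14832 genes higher and 1.27% lower. Without the block all 5 had an adjusted p of 1 and no gene was called, 0% in either direction, with 392 genes at an unadjusted p under 0.05 and 36 genes lower by DESeq2. For Trp53 the unblocked standard error was 1.47, against 0.08 with the block.

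**Figure D4:**
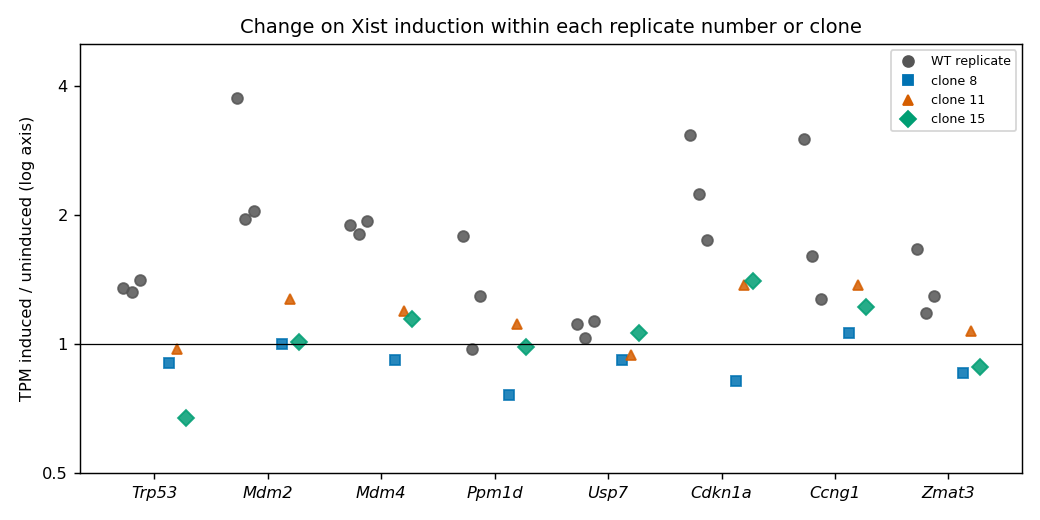
TPM of the induced over the uninduced library of the same wild-type replicate number or ΔCdk8 clone, on a log axis with a line at 1, for the 5 genes and 3 p53 targets. Wild-type ratios of Mdm2 run from 1.95 to 3.75 and of Mdm4 from 1.80 to 1.93, while the clones run from 1.00 to 1.27 and from 0.915 to 1.19.

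An interaction term, fitted to the 12 libraries together, compared the induction changes of the 2 genotypes. With the block the difference, ΔCdk8 minus wild-type, was -0.61 for Trp53 on the log2 scale (SE 0.10, edgeR adjusted p = 0.00885), -1.15 for Mdm2 (SE 0.21, edgeR adjusted p = 0.0151) and -0.80 for Mdm4 (SE 0.11, edgeR adjusted p = 0.00449). All 3 were negative, and each met one part of the threshold but not the other. The 5 genes were selected on values of these libraries, so these p-values are no independent support. Ppm1d differed by -0.44 (edgeR adjusted p = 0.221) and Usp7 by -0.13 (edgeR adjusted p = 0.447). The blocked interaction was called for 0.78% of 15137 genes as higher and 0.218% as lower. Without the block it was called for none, 0% in either direction, with an adjusted p of 1 for all 5, 587 genes at an unadjusted p under 0.05, and 31 genes higher and 2 lower by DESeq2.

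Group means of Trp53 ordered as 611 ± 84.7 TPM in induced wild-type, 448 ± 58.4 TPM in uninduced wild-type, 196 ± 287 TPM in uninduced ΔCdk8 and 186 ± 281 TPM in induced ΔCdk8 cells (SD, n = 3 each). The ΔCdk8 means differed by far less than their spread. For Mdm2 the order was 215 ± 72.4, 84.8 ± 9.09, 51.2 ± 23.5 in induced and 45.6 ± 14.5 TPM in uninduced ΔCdk8 cells, and again the ΔCdk8 groups overlapped. Across genes, TPM is a level per length, and in uninduced wild-type cells Trp53 stood above Usp7 at 251 ± 18.7 TPM, followed by Mdm2, by Mdm4 at 31.2 ± 9.41 TPM and by Ppm1d at 25.2 ± 4.89 TPM, the last pair overlapping. In clones 8 and 15 Usp7 was instead the highest of the 5, and Trp53 was at 19.9 to 30.1 TPM.

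Over the 12 libraries, which share clones and replicate numbers, the correlation of log2(TPM + 1) with Mdm2 was 0.79 for Trp53, 0.874 for Mdm4, 0.914 for Ppm1d and 0.277 for Usp7. Trp53 correlated at 0.926 with Cdkn1a and at -0.193 with Usp7. Trp53 was 19.9 to 30.1 TPM in clones 8 and 15 and 381 to 675 TPM in the other libraries. Its correlations, those of the genes most like it included, therefore largely restate this contrast. Among 7986 genes with a mean of at least 10 TPM, the genes most like Trp53 were 4931406P16Rik (0.995), Trub2 (0.988), Ppil4 (0.984), Wdr89 (0.983) and Grpel1 (0.98), none of them on chromosome 11. The first of these was 30.8, 36.2 and 31.4 TPM in uninduced wild-type replicates and 10.4, 34.6 and 9.07 TPM in clones 8, 11 and 15. Most like Mdm2 were Bloc1s2 (0.987), the p53 target Trp53inp1 (0.985), Kat8 (0.98), which encodes a histone acetyltransferase, Mcm3ap (0.98) and Wdr35 (0.978).

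The p53 target genes are given beside the 5 genes, between genotypes again as a description. Cdkn1a, the p21 inhibitor of cyclin-dependent kinases, was 28.4, 35.1 and 47.4 TPM in uninduced wild-type replicates and 1.80, 12.1 and 1.45 TPM in clones 8, 11 and 15. All clones were below the wild-type, clone 11 included, although its Trp53 level was not. Ccng1, a cyclin that recruits a phosphatase to Mdm2, was 89.6, 108 and 172 TPM in the wild-type and 9.97, 61.4 and 10.9 TPM in the clones. Zmat3, an RNA-binding p53 target, was 36.0, 30.5 and 37.4 TPM against 15.6, 23.4 and 19.6 TPM, again without overlap.

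The death genes Bax and Bbc3 (Puma) overlapped between genotypes. Bax, the pore-forming effector of apoptosis, was 297, 381 and 431 TPM in the wild-type and 146, 310 and 115 TPM in clones 8, 11 and 15. Another gene overlaps Bax, and 86 to 92.6% of its exon reads were placed uniquely. Bbc3, which frees Bax from its inhibitors, was 7.08, 11.7 and 12.5 TPM and 4.99, 7.45 and 3.14 TPM. Only clone 11 reached the wild-type range in either gene.

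Of 37 p53 targets on a list drawn from general knowledge, 36 had a fitted value between uninduced genotypes. The list was chosen with earlier results of these data known, so its comparisons with all genes, here and below, are a description. Their median log2 fold change was -0.43, with 23 of 36 negative, against 0.03 over all genes, of which 47.9% were negative. Relative to the uninduced wild-type mean the list's median log2 ratio in TPM was -0.619 in clone 8, -0.218 in clone 11 and -0.305 in clone 15, where all genes had medians of 0.145, -0.016 and 0.21. Among the 15 targets in arrest and feedback, 11 in clone 8, 9 in clone 11 and 11 in clone 15 were below all 3 uninduced wild-type libraries, or 73.3, 60 and 73.3%, against 26, 28.6 and 21.9% of all genes. Of the 11 death genes with values, 8, 3 and 6 were below all 3, or 72.7, 27.3 and 54.5%, of the 10 genes of repair and metabolism 2, 2 and 4, and of all 36 targets 21, 14 and 21. For these 10 targets in repair and metabolism the median log2 fold change between genotypes was 0.12, with 3 negative, so the lower values were not shared by all kinds of target. Members with the largest values in each kind were Cdkn1a (log2 fold change -2.93, SE 0.87), Eda2r (-2.59, SE 1.24), a death receptor gene, and Sco2 (-0.96, SE 0.43), a cytochrome c oxidase assembly gene.

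On induction of wild-type cells 32 of the 37 targets had a positive log2 fold change, or a median of 0.61, against 53.4% positive and a median of 0.03 over all genes. The blocked fit called 5 of them higher (Cdkn1a, Trp53inp1, Ei24, Apaf1 and Ephx1) and none lower, where it called 1.47% of all genes higher and 2.48% lower. Without the block none was called, and DESeq2 called 8. The target list was not split by chromosome, so any X-linked targets, which Xist can silence, were not set apart. Cdkn1a reached 87.0, 78.1 and 83.0 TPM (blocked log2 fold change 1.26, SE 0.15, edgeR adjusted p = 0.00473; unblocked 1.23 and 0.0276). Trp53inp1, which promotes p53 phosphorylation, rose from 48.4, 44.0 and 75.2 to 207, 103 and 151 TPM (blocked 1.46, SE 0.18, edgeR adjusted p = 0.00571; unblocked 0.0353). Apaf1, the scaffold of the apoptosome, rose from 13.8, 10.9 and 13.9 to 36.6, 21.0 and 30.0 TPM (blocked 1.19, SE 0.09, edgeR adjusted p = 0.0014; unblocked 0.0265). Ephx1, an epoxide hydrolase, had the largest blocked value of the 5 at 2.16 (SE 0.16, edgeR adjusted p = 0.00117; unblocked 0.0226), and Ei24 had 1.08 (SE 0.07, edgeR adjusted p = 0.00082; unblocked 0.0183).

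In ΔCdk8 cells 30 of 36 targets were positive on induction with a median of 0.20, against 0.01 over all genes, and none was called with or without the block. The clones differed. Relative to the uninduced wild-type mean the median log2 ratio of the targets was -0.619, -0.218 and -0.305 in uninduced clones 8, 11 and 15. In the induced clones it was -0.665, 0.068 and -0.33, so it rose in clone 11 and not in clones 8 and 15. Cdkn1a was 1.48, 16.6 and 2.03 TPM in induced clones 8, 11 and 15. The difference between genotypes was negative for 33 of 37 targets, with a median of -0.42, against 49.8% negative and a median of 0.00 over all genes. In the blocked interaction, which called 0.218% of all genes lower and 0.78% higher, 1 target, Ephx1, passed as lower (-1.87, SE 0.22, edgeR adjusted p = 0.00192; unblocked adjusted p = 1). Ratios of single libraries ran as for Mdm2: Cdkn1a was 3.07, 2.23 and 1.75 times as high in induced wild-type replicates and 0.82, 1.37 and 1.40 times as high in clones 8, 11 and 15. In clones 8 and 15 these rest on levels of 2.03 TPM or less.

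**Figure D5:**
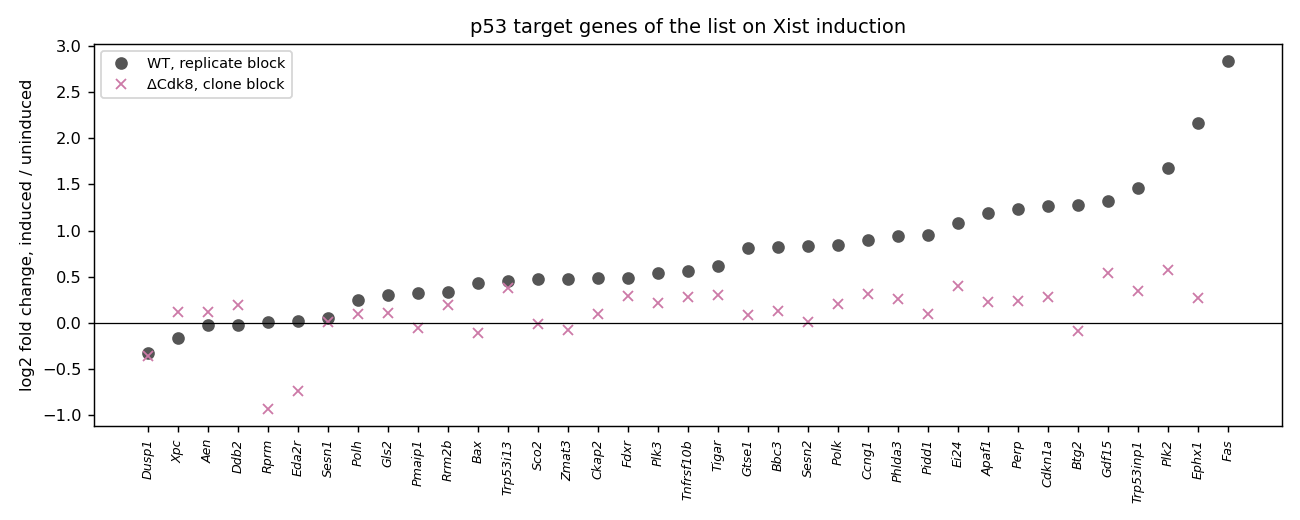
Log2 fold change on Xist induction of each p53 target of the list in wild-type cells (circles, replicate block) and in ΔCdk8 cells (crosses, clone block), ordered by the wild-type value. The 5 genes called in wild-type cells run from 1.08 (Ei24) to 2.16 (Ephx1), and the ΔCdk8 value is below the wild-type value for 33 of the 36 genes that have both.

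Other regulators of p53 showed few calls. Of 48 listed genes for kinases, ubiquitin enzymes, Mdm2 inhibitors and p53 cofactors, 47 were tested. The blocked wild-type induction fit called 1 of them, the lysine methyltransferase gene Setd7, lower (log2 fold change -1.08, SE 0.14, edgeR adjusted p = 0.00579; unblocked 0.0537), and the blocked interaction called the same gene higher (1.07, SE 0.18, edgeR adjusted p = 0.00993; unblocked adjusted p = 1). These fits called 2.48% of all genes lower and 0.78% higher. Such shares include X-linked genes, which Xist can silence, and nothing is read from 1 of 47. Setd7 was 11.5, 12.3 and 18.4 TPM in uninduced and 7.16, 4.82 and 7.22 TPM in induced wild-type replicates, and 14.7, 7.39 and 29.2 TPM in uninduced and 15.1, 5.71 and 30.8 TPM in induced clones 8, 11 and 15. Clone 11 was thus lower after induction, as the wild-type was, and clones 8 and 15 were slightly higher. No regulator was called on induction of ΔCdk8 cells. Huwe1 had the largest change on wild-type induction among the ubiquitin enzymes and was not called. It was 107, 79 and 145 TPM in uninduced and 45.2, 44.2 and 86.2 TPM in induced wild-type replicates. In clones 8, 11 and 15 it was 82.9, 91 and 91.1 TPM before and 58.3, 62.4 and 65.9 TPM after induction. The list was not split by chromosome, so any X-linked regulators, which Xist can silence, were not set apart.

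Between uninduced genotypes 37 of the 47 regulators were negative, with a median log2 fold change of -0.24, against 47.9% negative and a median of 0.03 over all genes. By clone, in TPM, 32 of the 47 were below the wild-type mean in clone 8, 37 in clone 11 and 24 in clone 15, with median log2 ratios of -0.195, -0.129 and -0.017, where all genes had medians of 0.145, -0.016 and 0.21, so the regulators' median was below that of all genes in each clone. Cdkn2a, whose Arf product holds Mdm2 away from p53, had the largest value, at 1.67 (SE 0.85). It was 11.4, 4.38 and 3.42 TPM in wild-type replicates and 43.2, 3.37 and 21.2 TPM in clones 8, 11 and 15, so clone 11 was below and clones 8 and 15 were above all wild-type libraries. The largest values in the other groups of regulators were -0.96 (SE 0.24) for the p53 kinase Hipk2, 0.68 (SE 0.37) for the deubiquitinase Usp2 and -0.52 (SE 0.24) for the acetyltransferase Crebbp. Trp53bp1, the DNA damage adaptor, had -0.34 (SE 0.13) and the p53 deubiquitinase Usp10 -0.33 (SE 0.17), where only 38.1 to 51.2% of Usp10 exon reads were placed uniquely and another gene overlaps it, so this value is uncertain. Of the relatives of p53 only Trp73 had enough reads to be tested, at 0.407, 2.99 and 4.57 TPM in wild-type replicates and 0.0964, 1.45 and 0.235 TPM in clones 8, 11 and 15.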

How the data were processed

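Poly(A) RNA was sequenced as stranded libraries of 125-base reads, aligned to GRCm38 with Ensembl annotation, and each of the 12 tables the authors deposited lists, per gene, counts of reads in the gene, exons, exon-exon junctions and introns, with TPM and RPKM computed by the authors from exon reads; fractions, also deposited, and RPKM were not used. TPM recomputed from exon reads and lengths differed by at most 0.000196 of its value. Whether counting used strand is not given in the sources used here, nor whether wild-type replicates were separate cultures, so p-values measure the spread between these libraries.

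Total gene reads were tested with edgeR 4.0.16 (quasi-likelihood, TMM, filterByExpr with a minimum of 10 reads in a library and 15 in all, Benjamini-Hochberg over all genes tested) in R 4.3.3; standard errors are the fold change over the root of F. All 5 genes passed the filter in all 4 comparisons. Replicate numbers paired the libraries: deviations from group means correlated at 0.421 to 0.613 for equal wild-type numbers and at most 0.263 for unequal ones, and at 0.739 to 0.84 within a clone, over 15137 genes, the clone being the same cell line. Blocked values stand beside the results they change. Alternatives were DESeq2 1.42.0, other size factors, filters, read kinds, a fit of all 12 libraries, an adjusted p under 0.05 without a fold minimum, and each library left out. Fits of intron and junction reads were chosen after seeing the data.

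The 5 genes and the pathway lists were chosen with earlier results of these data known. Genes named besides these were a fixed few (Cdkn1a, Ccng1, Zmat3, Bax, Bbc3, Cdkn2a, Trp53bp1, Usp10, Cdk8), those of a list past the threshold, the largest genotype value of each list, and the 5 genes most like Trp53 and Mdm2. Neighbours of Trp53 (Wrap53, Atp1b2, Mpdu1, Sox15, Cd68, Sat2) and Huwe1 fall outside this rule and were named after their values were seen. Depth limits the precision of low genes, and intervals cover counting error only.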

Additional observations from a re-analysis of the deposited data

Results flagged for a closer look

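The Trp53 TPM ratio of induced to uninduced libraries lay on opposite sides of 1 in the 2 genotypes: all 3 wild-type pairs had a higher induced library, with a mean ratio of 1.36, and all 3 ΔCdk8 clones a lower one, with a mean ratio of 0.848 (0.903, 0.97 and 0.67 in clones 8, 11 and 15). The ΔCdk8 change itself did not pass (-0.14 on the log2 scale with the clone as a block, edgeR adjusted p = 0.279), and Trp53 intron reads had ratios of 0.869, 1.10 and 1.14 in these clones. The interaction fitted to the same libraries gave -0.61 on the log2 scale with the replicate number and clone as a block (edgeR adjusted p = 0.00885) and an adjusted p of 1 without it. Trp53 was flagged because of this pattern, so the interaction is no independent test of it. The difference is smaller than the fold minimum.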

How the results depend on the processing

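The 5 genes were refitted under each alternative. Of the single-gene or chromosome values, 322 kept their direction and side of the threshold or, where untested, moved by less than the spread between libraries. Among the other single values 4 came to pass, 5 reversed and 5 moved. Of the summary values 91 were kept and 21 moved. A count of all called genes was kept if equal to the main count or within a set fold of it. A count of the 5 genes was kept if equal, and the Trp53 level ratio if it moved by less than the spread between libraries. Of the 5 genes, 1 (Mdm2) passed on wild-type induction with the replicate block, with DESeq2, with an adjusted p under 0.05 without a fold minimum, and without replicate 1 (log2 fold change 1.04, edgeR adjusted p = 0.00485), so the number of the 5 called with a replicate left out ran from 0 to 1; no other alternative called any of them. All genes called on wild-type induction numbered 162, and 553 with the block, 662 by DESeq2, 639 without a fold minimum, 54 from intron and 87 from junction reads, and 0 to 566 with a replicate left out, 566 being without replicate 1 and 0 without replicate 2 or 3. On ΔCdk8 induction the 0 became 208 with the block and 36 by DESeq2, in the interaction 151 with the block and 33 by DESeq2, and between uninduced genotypes 386 by DESeq2, 5 in a fit of all 12 libraries and 0 to 2 with a library left out, 2 being without wild-type replicate 1 or without clone 11. The cause of these shifts was not tested. The uninduced genotypes share no replicate numbers, so no block could be fitted there.

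The Trp53 log2 ratio of ΔCdk8 to wild-type means ran from -3.91 without clone 11 to -0.69 without clone 8 or clone 15. In unblocked fits with a replicate or clone left out, Ppm1d ran from 0.2 to 0.59 on wild-type induction and from -0.62 to -0.21 in the interaction. On ΔCdk8 induction 2 uncalled values near 0 changed sign: Usp7 to -0.00703 with exon reads, -0.00939 with junction reads, -5.77e-05 in a fit of all 12 libraries and -0.0586 to 0.0405 with a clone left out, and Ppm1d to between -0.15 and 0.0893 with a clone left out. Of the untested genotype values, that of Mdm4 ran from -0.5 to 0.00638 with a library left out (0.00638 without wild-type replicate 1). With intron reads that of Usp7 was 0.4 and that of Ppm1d -0.15. With 3 libraries a group, an exact permutation test of single values cannot go below p = 0.1, and the low Trp53 counts of clones 8 and 15 (648 to 1733 gene reads) limit the precision of their intron shares.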
